A study of Rattus norvegicus with 6 samples.

Results

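The genes of the mitochondrial respiratory chain were compared in cells grown from the brainstem of 2 inbred rat strains. SHR, the spontaneously hypertensive rat, becomes hypertensive with age, and WKY, Wistar Kyoto, has normal pressure and serves as its control. Each strain was measured on 3 single-colour CodeLink rat bioarrays, and 3 dishes of cells were combined for the RNA of each array. The design text calls the pools independent biological replicates. The labels give no age, treatment or time in culture for either strain. The members were all probes whose single gene symbol starts with Nduf, Uqcr, Cox4 to Cox8 or Atp5, or is Sdha, Sdhb, Sdhc, Sdhd or Cycs. The rule found 72 genes on 78 probes, of 12198 named genes on 33849 probes of the series table, and all 78 probes passed the filter on missing values. A further 6 probes that carry such a symbol together with another were left out. Sdha, Cox4i2, Cox6b1, Cox7a1, Ndufa4 and Atp5if1 had no probe with that single symbol, and the subunits encoded in mitochondrial DNA were not analysed here.

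The respiratory chain passes electrons from NADH and succinate to oxygen through protein complexes of the inner mitochondrial membrane. Complex I oxidises NADH, complex II oxidises succinate as part of the citric acid cycle, complex III hands the electrons to cytochrome c, and complex IV reduces oxygen. Complexes I, III and IV pump protons, and complex V, the ATP synthase, uses the proton gradient to make ATP. Neurons of the brain depend on this pathway for most of their ATP, and nuclear genes encode most of the subunits. The members comprised 28 genes of complex I subunits, 6 assembly factors of complex I, 3 genes of complex II, 7 of complex III, 12 of complex IV, 14 of complex V, the cytochrome c gene Cycs, and Ndufa4l2. The last is a paralogue of Ndufa4 and no subunit of complex I, in spite of its name.

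No respiratory chain gene passed the threshold for a difference between the strains. In limma, 0 of 33249 probes (0%) reached an adjusted p of 0.05, and 2545 had an unadjusted p under 0.05. Of the 78 member probes, 2 had an unadjusted p under 0.05 and were brighter in SHR (2.56%, against 3.65% of all probes), and 1 was dimmer (1.28%, against 4.01%). With an intensity trend and robust prior in limma, 7 of the 78 were brighter at that p, against 3.84% of all probes. In that fit 1 was dimmer, against 4.13%, so the count brighter in SHR depended on the fit. The median difference over the 72 genes was 0.08 (log2, SHR minus WKY, brightest probe of each gene), with 48 genes above 0 and 24 below, and that over all probes tested was -0.0099. The members' median rested partly on WKY 2 and WKY 3: it was 0.030 without WKY 2 and 0.035 without WKY 3, and 0.046 with median-centred per-sample intensities. In RNA of mixed cultures, a difference can come from fewer cells of a type or from less RNA per cell, and these cannot be told apart.

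The differences were of the same order as the spread between arrays of a strain, and most intervals were narrow. The median size of the difference was 0.11 (log2) over the 72 genes, with a median SD within a strain of 0.14, against 0.18 and 0.24 over all probes tested. The 95% interval of the difference lay wholly within 1.5-fold in either direction at 50 of the 72 genes (69.4%) and within 2-fold at 68 (94.4%). Over all probes these shares were 40.0% and 72.0%. Much of this precision goes with bright signal: 61 of the 72 genes had their brightest probe among the brightest 25% of probes tested, where 66.4% of intervals lay within 1.5-fold. Within that brightest class, 1.90% of probes had an unadjusted p under 0.05 and were brighter in SHR and 2.15% were dimmer. Of the 72 genes, 49 lay above percentile 90 of signal. The highest log2 value of the table was 15.34. Whether signals near that value still follow the amount of RNA was not tested, so narrow intervals there describe signal.

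**Figure D1:**
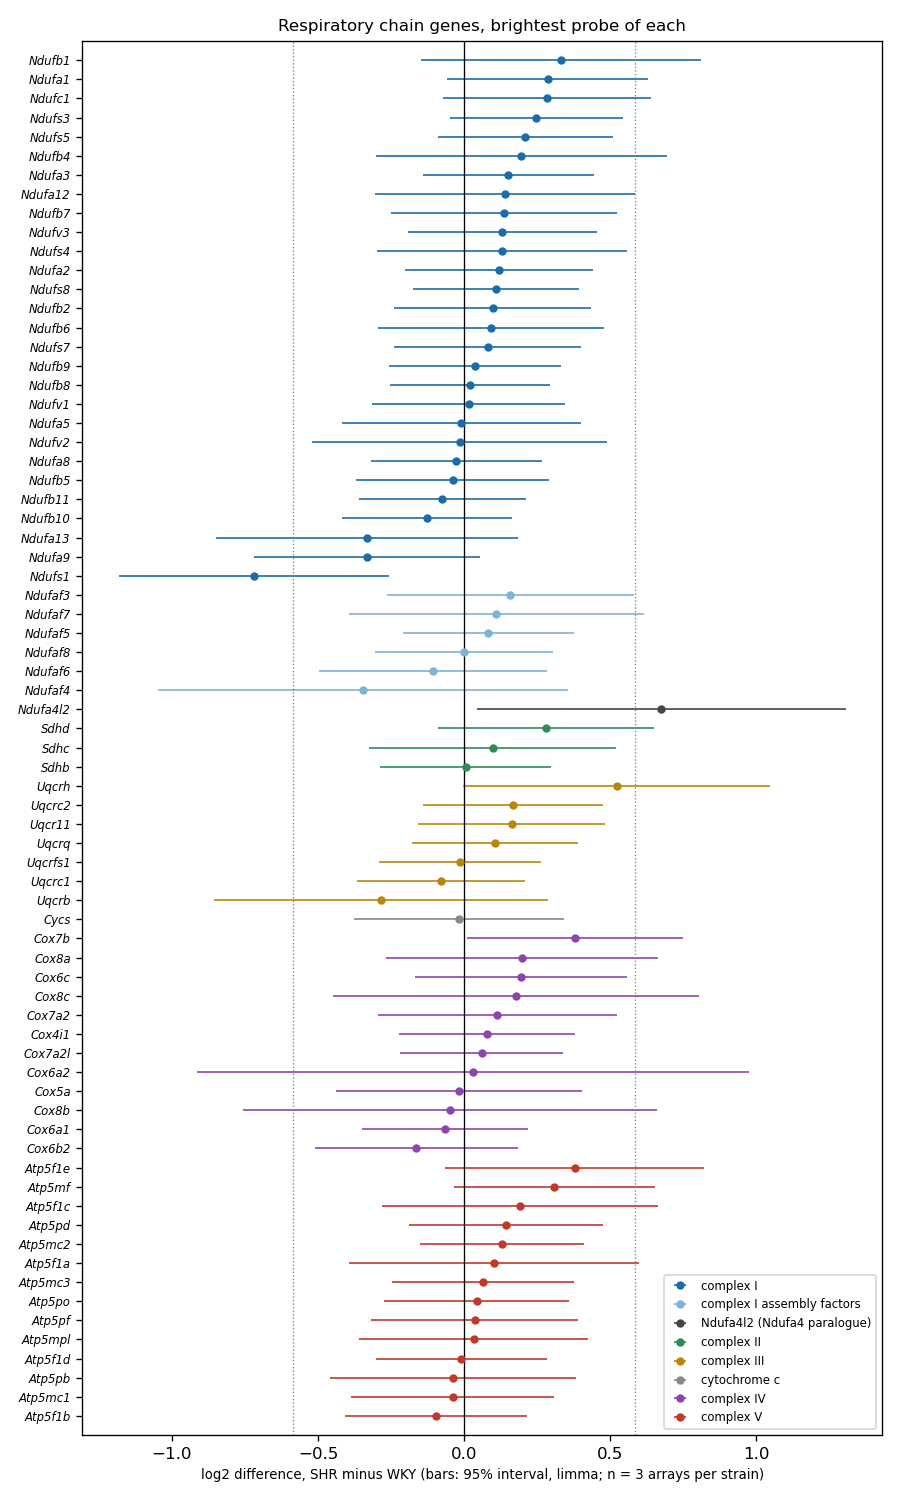
Difference of each of the 72 genes between SHR and WKY (x axis: log2, SHR minus WKY; points: brightest probe; bars: 95% interval from limma, 3 arrays per strain; dotted lines: 1.5-fold), grouped by complex. Intervals of 69 genes include 0; those of Ndufs1, Ndufa4l2 and Cox7b do not, before adjustment over all probes.

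Complex I, which feeds electrons from NADH into the chain, held the member with the smallest p. Ndufs1 encodes a core iron-sulfur subunit of the arm that oxidises NADH. Its normalized intensity was 8188, 9161 and 6152 units on the SHR arrays and 14581, 11657 and 12141 units on the WKY arrays. All 3 SHR arrays were below all 3 WKY arrays. Log2 signals averaged 12.92 ± 0.30 (SD, n = 3) for SHR and 13.64 ± 0.17 (SD, n = 3) for WKY, a difference of -0.72 ± 0.19 (SE), or 1.65-fold dimmer in SHR with a 95% interval of -1.18 to -0.26 on the log2 scale. In limma its unadjusted p was 0.0084 and its adjusted p 0.531, so it did not pass. Without single arrays the difference ranged from -0.84 to -0.56. Ndufs1 had 1 probe, so no second probe could check it.

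Other differences of complex I genes were smaller. Ndufa9, an accessory subunit next to the quinone site, gave 9.78, 10.22 and 10.07 (log2 signal) in SHR and 10.24, 10.36 and 10.47 in WKY, again with no overlap but with SHR 2 close to WKY 1. Its difference was -0.33 ± 0.16 (SE). Ndufs3, a core subunit of the matrix arm, gave 13.63, 13.57 and 13.75 in the SHR pools and 13.35, 13.48 and 13.38 in the WKY pools. Here all SHR arrays were above all WKY arrays, by 0.25 ± 0.12 (SE). Ndufa1, a small subunit of the membrane arm, differed in the same direction by 0.29 ± 0.14 (SE), with SHR signals of 14.83, 15.04 and 14.96 against 14.78, 14.47 and 14.72. Ndufc1, another small membrane subunit, differed by 0.28 ± 0.15 (SE), and its lowest SHR array lay within the WKY range. Ndufa13, an accessory subunit, differed by -0.33 ± 0.21 (SE) at a dim probe, with overlap. In all, 19 of 28 complex I genes stood above 0 and 9 below, with a median of 0.10 and a range from -0.72 to 0.33. The intervals of 21 of the 28 genes lay within 1.5-fold. In spite of their part in the same complex, Ndufs1 and Ndufs3 thus differed in opposite directions, neither of them past the adjusted threshold.

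The assembly factors, which help build complex I and are not part of it, showed less. Ndufaf3 differed by 0.16 ± 0.18 (SE), Ndufaf7 by 0.11 ± 0.21, Ndufaf5 by 0.08 ± 0.12 and Ndufaf8 by -0.0016 ± 0.13. Ndufaf6 differed by -0.11 ± 0.16. Ndufaf4 gave the widest interval of the 6, from -1.05 to 0.35 around -0.35. No assembly factor among these 6 had an unadjusted p under 0.05, and SHR and WKY values overlapped at each.

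Ndufa4l2 gave a high signal on 2 of the 3 SHR arrays. It is a target of hypoxia-inducible factor in other cell types, where its product lowers the use of oxygen by mitochondria. Its log2 signal was 10.81, 10.11 and 11.07 in SHR and 10.16, 9.93 and 9.89 in WKY. SHR 1 and SHR 3 stood above all WKY arrays, while SHR 2 lay within the WKY range. The difference was 0.67 ± 0.26 (SE), or 1.6-fold brighter in SHR, with an interval from 0.04 to 1.31 and an adjusted p of 0.632 in limma. Without SHR 2 it was 0.95, and the lowest value without a single array was 0.47. The gene had 1 probe.

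**Figure D2:**
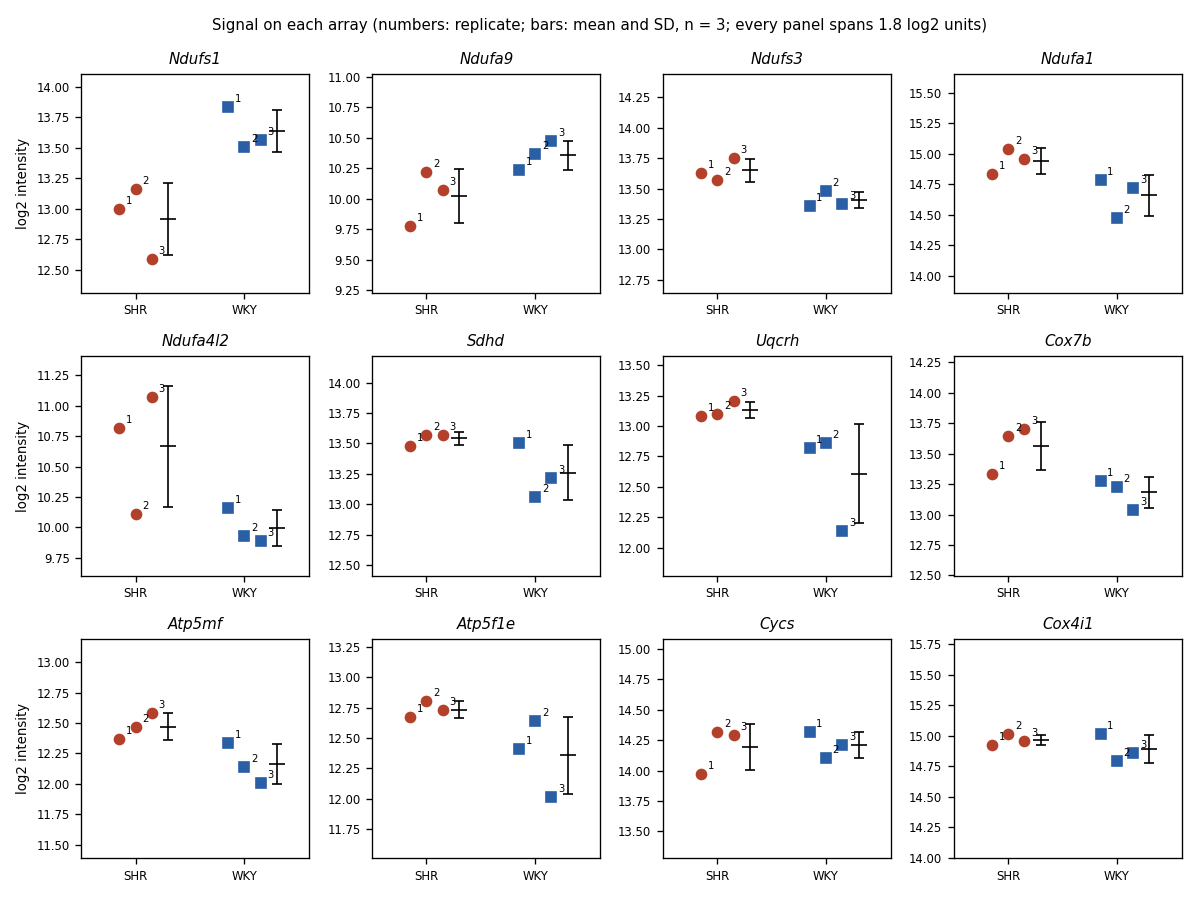
Log2 intensity on each array for 12 members (y axis: log2 of the normalized intensity, of equal span in every panel; circles: SHR, squares: WKY, numbered by replicate; bars: mean and SD, n = 3). Ndufs1 is lower on all SHR arrays, Ndufa4l2 is high on SHR 1 and SHR 3 only, and the low value of WKY 3 sets much of the difference of Uqcrh and Atp5f1e.

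Complex II, which is also the succinate dehydrogenase of the citric acid cycle, was represented by its iron-sulfur subunit and both membrane anchors. Sdhb, the iron-sulfur subunit, averaged 14.98 ± 0.085 (log2 signal, SD, n = 3) on the SHR arrays and 14.97 ± 0.063 (SD, n = 3) on the WKY arrays, a difference of 0.0049 ± 0.12 (SE). The interval of that difference, from -0.29 to 0.30, leaves out a change of 1.5-fold in signal. Both means lay near the highest log2 value of the table, 15.34, and whether so bright a signal follows the amount of RNA was not tested. Sdhc, a membrane anchor, differed by 0.10 ± 0.18 (SE). Sdhd, the other anchor, gave 13.48, 13.57 and 13.57 in SHR and 13.50, 13.06 and 13.21 in WKY, a difference of 0.28 ± 0.15 (SE). Its SHR values lay close together and 1 of them was below WKY 1.

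In complex III the signal of Uqcrh stood out. Uqcrh encodes the hinge protein, which lies beside cytochrome c1. Its log2 signal was 13.08, 13.10 and 13.20 in SHR and 12.82, 12.86 and 12.14 in WKY. The strains did not overlap, and WKY 3 was far below the other WKY arrays. The difference was 0.52 ± 0.22 (SE), with an interval that just included 0, and 0.29 without WKY 3. Uqcrc2, a core protein of the complex, differed by 0.17 ± 0.13 (SE) and Uqcr11, a small subunit, by 0.16 ± 0.13. Uqcrb, which takes part in quinone binding, differed by -0.28 ± 0.24, Uqcrc1, the other core protein, by -0.08 ± 0.12, and Uqcrfs1, the Rieske iron-sulfur protein, by -0.01 ± 0.12. The complex had 4 genes above 0 and 3 below, with a median of 0.11 that changed sign, to -0.02, with median-centred per-sample intensities. Cycs, the cytochrome c gene, gave 13.97, 14.31 and 14.29 on the SHR arrays and 14.31, 14.11 and 14.21 on the WKY arrays. Only SHR 1 lay outside the WKY range, and the strains differed by -0.02 ± 0.15 (SE).

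Complex IV, the cytochrome c oxidase, contains subunits that come in forms for different tissues. Cox7b, a small subunit near the surface of the complex, gave 13.34, 13.65 and 13.70 in SHR and 13.28, 13.23 and 13.04 in WKY. SHR 1 lay only just above WKY 1, while SHR 2 and SHR 3 were clear of the WKY arrays. The difference was 0.38 ± 0.15 (SE), or 1.30-fold brighter in SHR, with an adjusted p of 0.646 in limma. Cox6c differed by 0.19 ± 0.15 (SE). The forms of most tissues differed little: Cox4i1, a subunit through which ATP regulates the enzyme, by 0.08 ± 0.12 (SE), Cox6a1 by -0.06 ± 0.12 and Cox7a2 by 0.11 ± 0.17. Cox7a2l, which joins complexes III and IV into supercomplexes, differed by 0.06 ± 0.12.

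The forms known from muscle and testis gave less precise values. Cox6a2 and Cox8b, which heart and skeletal muscle use in rodents, differed by 0.03 ± 0.39 (SE) and -0.05 ± 0.29. The arrays of Cox6a2 spread widely within each strain, from 8.28 to 9.27 in SHR and from 8.24 to 9.51 in WKY. Cox6b2 and Cox8c, forms of the testis, differed by -0.16 ± 0.14 and 0.18 ± 0.26. Cox8b had a mean log2 signal of 5.71 in SHR and 5.76 in WKY, at percentile 1.38 of the probes tested. Whether so dim a signal is above background could not be judged, since the files used here do not mark negative control spots. Of the 12 complex IV genes 8 stood above 0 and 4 below, with a median of 0.07.

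Of 14 complex V genes 10 stood above 0, with a median of 0.05. That median was 0.11 without SHR 1, 0.12 without WKY 1 or with the mean of all probes, 0.030 without WKY 2 and 0.031 without WKY 3. Atp5f1e, the epsilon subunit of the rotor, gave 12.67, 12.80 and 12.73 in SHR and 12.41, 12.64 and 12.02 in WKY, a difference of 0.38 ± 0.18 (SE). As for Uqcrh, the strains did not overlap and WKY 3 was the lowest array. Atp5mf, a small subunit of the membrane part, gave 12.36, 12.47 and 12.58 in SHR and 12.34, 12.14 and 12.01 in WKY, a difference of 0.31 ± 0.14. Its SHR 1 and WKY 1 values nearly met. Atp5mc1, Atp5mc2 and Atp5mc3 encode the same mature subunit of the c ring with different import sequences. They differed by -0.04 ± 0.14 (SE), 0.13 ± 0.12 and 0.06 ± 0.13, and the interval of each lay within 1.5-fold. Atp5f1b, the catalytic beta subunit, differed by -0.10 ± 0.13 and Atp5pb, of the peripheral stalk, by -0.04 ± 0.17. All 14 intervals of complex V lay within 2-fold, and 10 within 1.5-fold.

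The 3 SHR values lay wholly above the WKY values at 11 of 78 member probes (14.1%, against 6.35% of all probes) and wholly below at 4 (5.13%, against 7.48%). Counted by the brightest probe these were 10 genes above and 3 below, since a dim probe each of Atp5po and Ndufs4 fell away. Besides Ndufs3, Ndufa1, Uqcrh, Cox7b, Atp5f1e, Atp5mf and Atp5mc2, the genes above were Ndufs5 (0.21 ± 0.12, SE), Ndufa3 (0.15 ± 0.12) and Ndufs8 (0.11 ± 0.12). Besides Ndufs1 and Ndufa9, the gene below was Ndufb10 (-0.13 ± 0.12). Ndufs5, Ndufa3, Ndufs8 and Ndufb10 were named after their values were seen. Ndufs1 was the only 1 of these 13 genes with a difference of at least 1.5-fold. The count was unstable: with per-sample intensities centred on the array median 6 probes had no overlap, against 15. The share of all probes without overlap was not computed with those intensities.

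The same arrays were low across several complexes with the quantile normalized intensities. The array score, the mean over 71 genes of each gene's deviation from its mean over the 6 arrays, was -0.0050, 0.02 and 0.09 (log2) on SHR 1 to SHR 3 and 0.05, -0.07 and -0.08 on WKY 1 to WKY 3. WKY 1 lay between the SHR arrays, so the strains overlapped. WKY 2 was the lowest array at 21 of the 71 genes (29.6%) and WKY 3 at 20 (28.2%), against 20.7% and 15.5% of all probes. SHR 3 was the highest array at 26 genes (36.6%, against 19.3% of all probes). For complex II the lowest score was that of WKY 2, at -0.23, and for complex V that of WKY 3, at -0.14. Complex I scored -0.05, 0.04 and 0.08 on the SHR arrays and 0.03, -0.02 and -0.08 on the WKY arrays, with overlap. With median-centred per-sample intensities WKY 3 scored -0.028 over all members, level with SHR 2 at -0.029, while WKY 2 scored -0.13. For complex IV WKY 3 then scored 0.058. Over all probes the quantile normalized scores lay between -0.0045 and 0.0061. Quantile normalization holds these near 0, so their contrast with the member scores was set in advance. Without normalization the scores of all probes ran from -0.12 on WKY 3 to 0.12 on SHR 2. Those of the members then ran from -0.22 on WKY 3 to 0.21 on SHR 3.

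**Figure D3:**
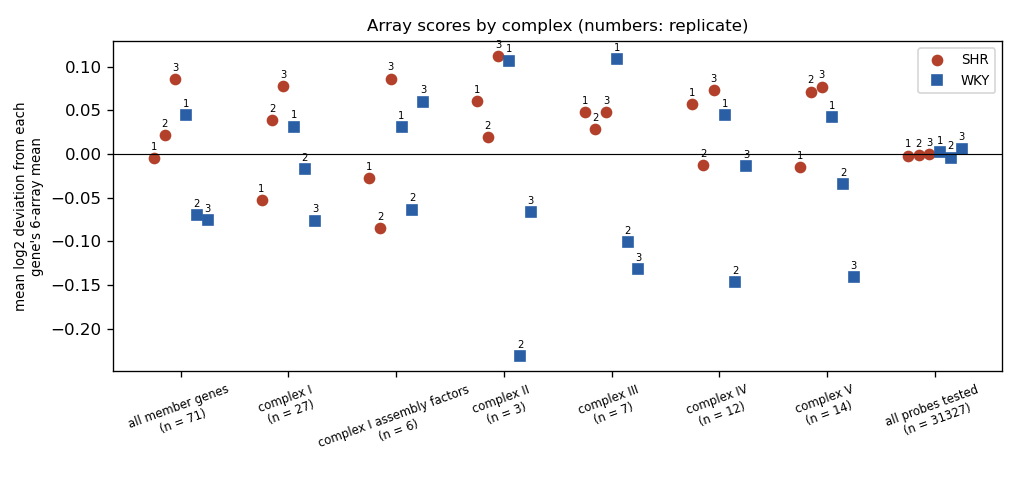
Array scores of the members by complex and of all probes tested (y axis: mean log2 deviation of the genes from their mean over the 6 arrays; circles: SHR, squares: WKY, numbered by replicate; n: genes with values on all 6 arrays). WKY 1 lies within or above the SHR range in each complex and in the assembly factors, and WKY 2 and WKY 3 are the lowest arrays over all members.

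The 6 genes with 2 probes, Ndufs4, Ndufs7, Cox8a, Atp5f1b, Atp5mpl and Atp5po, showed how far a single probe can be relied on. At 4 of them the probes disagreed in sign. Cox8a gave 0.20 ± 0.19 (SE) at the brighter probe and -0.32 ± 0.17 at the other. Ndufs4, an accessory subunit of complex I, gave 0.13 ± 0.18 and -0.46 ± 0.30. The dimmer Ndufs4 probe was measured on 2 WKY arrays, since its WKY 3 entry in the series table was not above 0. Ndufs7 gave 0.08 ± 0.13 and -0.11 ± 0.16, and Atp5f1b -0.10 ± 0.13 and 0.10 ± 0.15. Atp5po, of the peripheral stalk, gave 0.04 ± 0.13 and 0.51 ± 0.27, and Atp5mpl 0.03 ± 0.16 and 0.46 ± 0.32. All 12 intervals included 0. For Ndufa5, with 1 probe, the WKY 2 spot held the missing code and was left out of the fit, and its difference was -0.01 ± 0.16.

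**Figure D4:**
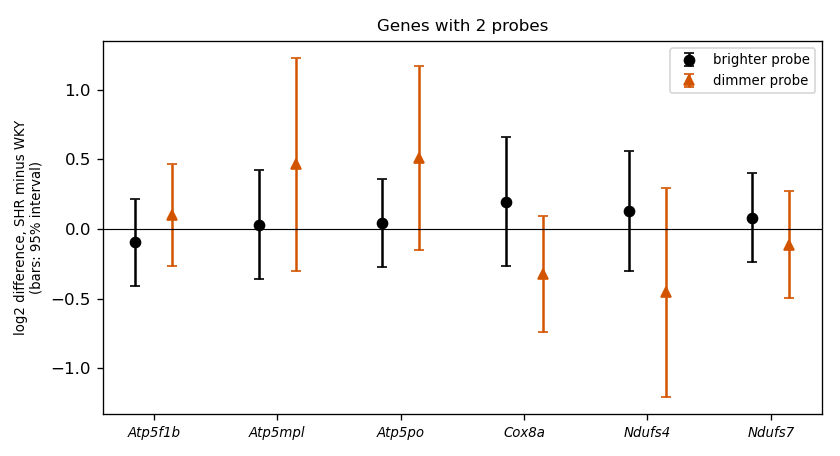
Difference between SHR and WKY at both probes of the 6 genes with 2 probes (y axis: log2, SHR minus WKY; circles: brighter probe, triangles: dimmer probe; bars: 95% interval from limma). The intervals of both probes include 0 for each gene, and the signs differ for Atp5f1b, Cox8a, Ndufs4 and Ndufs7.

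Markers of some cell types had larger differences than the members, with medians of -0.76 for oligodendrocyte markers, 1.35 for those of fibroblasts and meninges and 1.21 for those of ependyma and choroid plexus. Of 6 measured astrocyte genes, Gfap, the astrocyte filament gene, had a mean log2 signal of 13.90 in SHR and 13.95 in WKY. Slc1a2 was dim, with a mean of 7.02 in SHR and 6.88 in WKY. Aldh1l1 was lower on all SHR arrays than on all WKY arrays, with a difference of -0.45 ± 0.16 (SE). In limma its unadjusted p was 0.033 and its adjusted p 0.610. Of the 6 astrocyte genes 2 stood above 0 and 4 below, with a median of -0.02. Of 4 measured neuronal genes, Stmn2 had a mean signal of 13.57 in SHR and 13.30 in WKY, Nefl of 9.45 and 9.42, Nefm of 8.75 and 8.59, and Snap25 of 5.43 and 6.02; Snap25 alone stood below 0. Of 8 measured oligodendrocyte markers 8 stood below 0, with array scores from -0.73 to 0.26 in SHR and from 0.22 to 0.47 in WKY. Of 6 markers of fibroblasts and meninges 5 stood above 0, with scores from -0.01 to 0.80 in SHR and from -0.68 to -0.33 in WKY. Of 4 markers of ependyma and choroid plexus 3 stood above 0, among them Ttr, the transthyretin gene of choroid plexus, by 2.66 ± 0.60 (SE), and Otx2, a transcription factor gene, by 1.47 ± 0.47. Otx2 was dim, with a mean log2 signal of 7.32 in SHR and 5.84 in WKY, and 4.79 on WKY 1. The scores of the 4 markers did not overlap between the strains, at 0.55 to 0.63 in SHR and -0.90 to -0.045 in WKY. Every marker of these 3 lists had a value above 0 on all 6 arrays. Ndufs1 gave 13.00, 13.16 and 12.59 (log2 signal) on SHR 1 to SHR 3, where the oligodendrocyte score was -0.60, 0.26 and -0.73. On WKY 1 to WKY 3 it gave 13.83, 13.51 and 13.57, where that score was 0.38, 0.47 and 0.22. The part of cell makeup in the member differences was not tested.

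Other genes of mitochondrial energy metabolism are counted by their brightest probe in the same way. A dimmer probe had an unadjusted p under 0.05 in limma where the brightest did not for Sco1 (0.51 against -0.01), Pdha1 (0.60 against 0.09), Ucp1 (0.48 against 0.02), Slc2a3 (-0.50 against -0.32) and Gabpa (-0.32 against 0.32), named after their values were seen. Of 37 measured assembly factors of the chain outside the members, 23 stood above 0 and 14 below, and 0 had an unadjusted p under 0.05 in limma. Taco1, a translational activator of complex IV, differed by 0.19 ± 0.13 (SE), Coa3, an assembly factor of complex IV, by 0.19 ± 0.12, and Ttc19 and Bcs1l, which act on complex III, by -0.32 ± 0.16 and -0.21 ± 0.13. Among 12 other electron carriers and entry points, Gpd2, the mitochondrial glycerol phosphate dehydrogenase, gave 12.69, 12.86 and 12.60 in SHR and 13.07, 13.03 and 12.98 in WKY. The strains did not overlap, and the difference was -0.31 ± 0.13, with an unadjusted p of 0.048 and an adjusted p of 0.647 in limma. It was the 1 gene of that list with an unadjusted p under 0.05. Coq6, of coenzyme Q synthesis, differed by -0.23 ± 0.13, Coq3, of the same pathway, by 0.19 ± 0.18 and Etfa, an electron transfer flavoprotein subunit, by 0.40 ± 0.24.

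Of 12 measured genes of the citric acid cycle and pyruvate oxidation, 10 stood above 0, with a median of 0.09. Scored by array, they gave -0.01, 0.05 and 0.11 for SHR 1 to SHR 3 and 0.11, -0.11 and -0.14 for WKY 1 to WKY 3, with WKY 2 and WKY 3 lowest, as for the members. Idh3a, of isocitrate dehydrogenase, differed by 0.26 ± 0.16 (SE; 0.47 at its other probe), Dld by 0.31 ± 0.21, Dlst by -0.07 ± 0.12 and Idh3g by -0.10 ± 0.18. Of 11 carriers and channels 7 stood above 0 and 0 had an unadjusted p under 0.05. Vdac3, a pore of the outer membrane, differed by 0.23 ± 0.18 and Ckmt1, a mitochondrial creatine kinase, by -0.33 ± 0.17. The uncoupling protein gene Ucp3 differed by -0.15 ± 0.16. Slc25a27, of the same family, gave 0.17 ± 0.15 and -0.29 at its other probe, so no direction can be given for it.

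Of 17 measured regulators of mitochondrial gene expression, 10 stood above 0, with a median of 0.11. Tfb2m, a mitochondrial transcription factor, differed by 0.36 ± 0.15 (SE), and its strains did not overlap. Gabpa, a subunit of nuclear respiratory factor GABP, differed by 0.32 ± 0.15 at its brightest probe, but its other probes gave -0.32 and 0.31, so no direction can be given for it. Nrf1, named after its values were seen, gave 8.46, 8.36 and 8.49 in SHR and 8.29, 8.14 and 8.10 in WKY, a difference of 0.26 ± 0.12. Pprc1 and Ppargc1b, coactivators of the PGC-1 family, differed by -0.33 ± 0.16 and -0.17 ± 0.14. Ppargc1a, of the same family and named after its values were seen, differed by 0.34 ± 0.42. Its other probes gave 0.27, 0.22 and 0.0031. At the brightest probe of each gene, limma gave none of the 17 an unadjusted p under 0.05, while the Gabpa probe at -0.32 had one of 0.034.

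Glycolysis and lactate genes were split evenly in sign, with 10 of 20 above 0 and a median of -0.02. The SHR values lay wholly above the WKY values at 5 of the 20 and wholly below at 0, against 6.35% and 7.48% of all probes. Pfkl, a phosphofructokinase gene, gave 11.78, 11.80 and 12.17 in SHR and 10.96, 11.49 and 11.60 in WKY. All SHR arrays were above all WKY arrays, and the difference was 0.57 ± 0.22 (SE; 0.36 at the other probe), with an unadjusted p of 0.037 and an adjusted p of 0.626 in limma. Pfkp, another phosphofructokinase gene, differed by 0.32 ± 0.14 (0.02 at its other probe). Eno2, the neuronal enolase, differed by -0.53 ± 0.29 and Slc2a3, the neuronal glucose transporter, by -0.32 ± 0.19 (-0.50 at its other probe).

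Some promoters of the members held the letters of known factors, which the rule did not use. Nuclear respiratory factor NRF-1, the ETS factor GABP and YY1 are known to act on many respiratory chain genes. Promoter sequences of 64 of the 72 genes were matched by gene identifier in RefSeq (build GRCr8), as 250 bases before to 50 bases after the annotated start. The full NRF-1 palindrome, given in capitals in the sequences that follow, occurred in 4 of 64 member promoters (6.25%), against 0.932% of 27457 promoters of all genes and 1.58% of 10065 promoters of genes named on the array. With the fifth base of the palindrome left open, which includes the full match, the shares were 20.3%, 4.71% and 8.37%. The ETS letters CCGGAAG occurred in 26.6% of member promoters, against 9.22% and 15.03%, and the YY1 letters AAGATGGC in 21.9%, against 3.44% and 4.78%. The core letters ACGTG or GCGTG of hypoxia response elements occurred in 59.4%, against 42.9% and 57.6%. Both strands were searched. The median GC content was 56.7% in member promoters, 52.3% in all and 60.0% in those of genes named on the array. A match describes letters and does not show that a factor binds.

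The 4 members whose promoter held the full NRF-1 palindrome before the annotated start are shown with it in capitals, to let a reader see the match in its context. They are 2 genes of complex V and 2 assembly factors of complex I, and none had an unadjusted p under 0.05 at its brightest probe. Atp5mc2 (chr7:135678250-135678289, minus strand), Atp5po (chr11:44657518-44657557, minus strand), Ndufaf4 (chr5:43401622-43401661, plus strand) and Ndufaf5 (chr3:147961582-147961611, plus strand) are given 5′ to 3′ on the strand of the gene, build GRCr8.
Atp5mc2: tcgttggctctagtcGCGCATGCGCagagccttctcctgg
Atp5po: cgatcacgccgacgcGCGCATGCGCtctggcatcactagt
Ndufaf4: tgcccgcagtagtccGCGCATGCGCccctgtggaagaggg
Ndufaf5: gtcgtagtccctttgGCGCATGCGCacaat

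The 250 bases before the annotated start are shown for the 3 genes with an unadjusted p under 0.05, in the same build, with matches to the searched letters in capitals. Ndufs1 (chr9:72073606-72073855, minus strand) held the ETS letters on the reverse strand. Cox7b (chrX:75148786-75149035, plus strand) and Ndufa4l2 (chr7:65241919-65242168, plus strand) held none of the searched letters in these bases, the hypoxia core included. In Ndufa4l2 the YY1 letters span the annotated start, so that most of the match lies beyond the bases shown, and it is counted in the share given for YY1. The Cox7b sequence had a GC content of 40.4%, against 58.0% for Ndufs1 and 57.6% for Ndufa4l2.
Ndufs1: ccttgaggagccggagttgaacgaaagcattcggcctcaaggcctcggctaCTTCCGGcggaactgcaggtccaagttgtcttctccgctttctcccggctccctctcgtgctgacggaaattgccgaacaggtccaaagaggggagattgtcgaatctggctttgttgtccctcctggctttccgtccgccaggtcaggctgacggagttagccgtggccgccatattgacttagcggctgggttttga
Cox7b: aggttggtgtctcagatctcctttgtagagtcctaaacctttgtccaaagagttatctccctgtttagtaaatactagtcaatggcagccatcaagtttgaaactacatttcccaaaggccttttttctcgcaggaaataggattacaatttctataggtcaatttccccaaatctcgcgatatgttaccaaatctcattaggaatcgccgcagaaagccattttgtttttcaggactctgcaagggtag
Ndufa4l2: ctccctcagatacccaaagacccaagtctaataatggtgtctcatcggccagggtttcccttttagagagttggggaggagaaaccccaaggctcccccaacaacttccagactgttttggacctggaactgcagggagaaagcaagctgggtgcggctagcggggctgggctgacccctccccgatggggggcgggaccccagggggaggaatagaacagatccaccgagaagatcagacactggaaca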

How the data were processed

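Background-subtracted CodeLink intensities were deposited in per-sample tables (array medians 439 to 572, with a missing code at 178 to 238 spots) and, per the labels' design text, quantile normalized by the authors in the series table (median 520 in every column), which was the main source. Per that text, spots under the negative controls plus 2 SD were excluded. No software version was stated. Entries not above 0 were set to missing (615 per column), and the rest were taken to log2 as they stood. Testing required 3 valid values for a strain and 2 or more for its counterpart, and used limma 3.58.1 in R 4.3.3 (SHR minus WKY, two-sided, Benjamini-Hochberg over 33249 probes), and 600 probes were not tested. The steps were run on simulated data with planted changes larger than any member difference. That run does not show how well differences of the size reported here are found. Arrays of one strain correlated at 0.969 to 0.980 across probes and arrays of different strains at 0.964 to 0.977. The number of arrays limits the precision.

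Symbols came from the platform annotation, and the brightest probe stood for a gene. Genes named were up to 3 per direction and complex by smallest p, a set of isoforms, and members separated by at least 1.5-fold, and of every other list up to 2 per direction. The members, lists and rules were chosen with earlier results of these data known. No test over the list was made. Promoters came from RefSeq, 1 per gene. Figures were drawn with matplotlib 3.10.9.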

Additional observations from a re-analysis of the deposited data

How the results depend on the processing

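The number of probes past an adjusted p of 0.05 was 0 in limma and 5 with probes valid on all 6 arrays, 18 with the dimmest 25% left out, 17 after adding 50 to each intensity and 28 with an intensity trend and robust prior, and no member was among them: the smallest adjusted p of a member in any setting was 0.306, without SHR 2. Member probes brighter in SHR at an unadjusted p under 0.05 numbered 7 with the trend and robust prior (Uqcrh, Atp5mf, Ndufa1, Cox7b, Ndufs3, Ndufa4l2 and Atp5f1e), 1 with median-centred intensities, 1 with the replicate block and 0 to 3 without single arrays (0 without SHR 3 or WKY 3, 1 without SHR 2). Of all probes, 3.84% were so called with the trend and robust prior, 2.69% with median-centred intensities and 4.11% with the replicate block. Without single arrays that share ranged from 2.47% (without SHR 3) to 5.41% (without WKY 1). Member probes dimmer in SHR at that p numbered 0 with unnormalized intensities, where Ndufs1 gave -0.56, and 1 to 2 without single arrays (2 without SHR 2 or WKY 1). Of all probes, 2.51% were dimmer at that p with unnormalized intensities, 5.28% without SHR 2 and 5.34% without WKY 1. Member probes without overlap numbered 7 with unnormalized and 6 with median-centred intensities, and 17 to 35 without single arrays (27 without SHR 1 and 35 without WKY 1), where fewer values have to be separated. The share of all probes without overlap was not computed in these settings, so these counts cannot be set against it. Unnormalized intensities moved the median of all probes to 0.12 and those of the members to 0.19 for all genes, 0.24 for complex I, 0.22 for complex II, 0.19 for complex IV and 0.18 for complex V. That of complex III was -0.017 with median-centred intensities. Without single arrays the medians ranged from 0.030 (without WKY 2) to 0.12 (without WKY 1) for all genes, from 0.032 (without WKY 3) to 0.11 for complex I, from -0.017 (without WKY 2) to 0.20 (without SHR 2) for complex II, from 0.072 to 0.14 for complex III, from 0.030 (without WKY 2) to 0.12 (without WKY 1) for complex V, and from -0.025 (without WKY 2) to 0.15 (without WKY 1) for complex IV.

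Of 66 genes compared, 45 kept their sign in every setting run, among them Ndufs1, Ndufa4l2, Cox7b and Uqcrh, and 0 passed the adjusted threshold in any. The mean of all probes was taken for members only. Gabpa and Slc25a27, each with another probe of opposite sign, were therefore not put to that setting. With unnormalized intensities the sign turned for Atp5mc1 (0.12), Atp5pb (0.10), Cox6a1 (0.0075), Cox6b2 (0.0031), Cycs (0.12), Ndufaf6 (0.073), Ndufaf8 (0.16), Uqcrc1 (0.042), Uqcrfs1 (0.13), Dlst (0.090) and Idh3g (0.056). With median-centred intensities it turned for Atp5mc3 (-0.061), Cox8c (-0.037), Ndufaf8 (0.011) and Sdhb (-0.062), with cyclic loess for Atp5mc3 (-0.020), Ndufaf8 (0.023), Sdhb (-0.025) and Uqcrfs1 (0.00063), and with the mean of all probes for Atp5f1b (0.0018) and Cox8a (-0.063). Without single arrays the differences that turned ranged from -0.11 to 0.071 for Atp5mc1, -0.14 to 0.084 for Atp5pb, -0.24 to 0.39 for Cox6a2, -0.017 to 0.19 for Cox7a2, -0.0022 to 0.31 for Cox8a, -0.31 to 0.24 for Cox8b, -0.032 to 0.37 for Cox8c, -0.077 to 0.093 for Cycs, -0.23 to 0.0064 for Idh3g, -0.0024 to 0.28 for Ndufaf3, -0.076 to 0.044 for Ndufaf8, -0.025 to 0.053 for Sdhb, -0.034 to 0.20 for Sdhc and -0.034 to 0.024 for Uqcrfs1. The cause was not tested.

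Deviations of same-numbered arrays correlated at 0.0011, 0.22 and -0.13, within the range of differently numbered arrays, -0.25 to 0.27. So few values cannot decide whether same-numbered pools were handled together, and the main fit used no pairing. Fitted with the replicate block, limma called 0 probes at the adjusted threshold and 2798 at an unadjusted p under 0.05, against 2545 in the fit without it.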
